A study of Mus musculus with 8 samples.

Results

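Genes known from interleukin-17 producing gamma delta T cells were followed across 4 groups of mouse bone marrow progenitors. The set holds 9 genes named for that program: the transcription factors Sox13 and Maf, the kinase Blk, the receptor segment Trgv1, the surface receptors 5830411N06Rik, Ccr6, Il23r and Il1r1, and the actin-binding protein Actn2. They were chosen with their higher values in Nfil3 knockout (KO) prepro NK cells (preproNK) already known. A member was measured where a probe set was annotated to its symbol alone, which left 8 of the 9, each with 1 probe set, among 17097 genes with such a probe set. No probe set was listed with Il23r alone, and it was not analysed here. All 8 passed the filter on dim values, as did 11583 genes in all. Ccr6 and Maf passed it through preproNK arrays alone, and Sox13, 5830411N06Rik and Trgv1 through those and 1 ALP array.

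RNA came from cells sorted out of bone marrow depleted of mature lineages. The mice carried an Id2-GFP reporter, so that green fluorescence follows Id2, and every group, wild type (WT) included, carried that reporter. All-lymphoid progenitors (ALP) and preproNK were each taken from both genotypes, which gave 4 groups with 2 arrays each. Replicate 1 and replicate 2 mark 2 processing dates. Neither the sorting gates, the age of the mice, the allele design of the knockout nor the number of mice per array is given in the sources used here.

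Gamma delta T cells carry an antigen receptor of a gamma and a delta chain, and a subset of them is programmed in the thymus to make interleukin-17 quickly. That subset depends on Sox13 and Maf, signals through Blk, and responds to interleukin-23 and interleukin-1 through their receptors. CCR6, the receptor for the chemokine CCL20, marks it and also marks other interleukin-17 producing lymphocytes. Nfil3, a bZIP factor, is needed to form NK cells and other innate lymphocytes, and ALP and preproNK are an earlier and a later step towards NK cells.

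The WT preproNK replicate 2 array stood apart before any gene was considered. Its values correlated with the other preproNK arrays at 0.574 to 0.621 across tested genes, whereas those 3 arrays correlated with each other at 0.944 to 0.963. With WT and KO ALP the correlations of this array were 0.747 and 0.656 for replicate 2 and 0.55 and 0.504 for replicate 1. The SD of its values over all probe sets was 1.39, against 1.55 to 1.88 on the other arrays. Xist was at 7.94 to 9.30 on the other replicate 2 arrays, at 3.10 to 3.56 on the replicate 1 arrays and at 4.20 on this array, where the Y-linked Kdm5d and Eif2s3y were also at their lowest (4.25 and 4.19). Nfil3 was lower on every KO array (3.41 to 4.15) than on every WT array (4.74 to 6.89), all as log2 values. The early progenitor receptor gene Flt3 lay at 8.10 to 9.14 in ALP and at 3.79 to 4.47 in preproNK. The NK receptor gene Ncr1 was below the array median on all 8 arrays, and Id2 was at 8.37 to 10.68 in preproNK against 5.94 to 6.94 in ALP. Each preproNK result below is therefore given for the replicate 1 pair, which does not hold the array that stood apart, and for the replicate 2 pair, which does.

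The sequences upstream of the members are shown first because most of the genes differed in the same direction in both preproNK pairs and the knocked-out gene encodes a DNA-binding protein. RefSeq start-site windows (GRCm38.p6, 250 bases before and 50 after the start) were held for 6 of the 9 members, with 10 windows among them. Searched on both strands were TTATGTAA and TTACGTAA, sites of Nfil3 and the related PAR bZIP factors, AGGTCA, a core site shared by many nuclear receptors, ACAAT for Sox factors, TGTGGT for Runx factors and TGACTCA for AP-1. None of the matches in the printed windows overlapped. The 250 bases before the start are printed for the 3 measured members with the most kinds of match, 5′ to 3′ on the gene's strand, with every match on either strand in capitals.
Ccr6, chr17:8235793-8236042, + strand: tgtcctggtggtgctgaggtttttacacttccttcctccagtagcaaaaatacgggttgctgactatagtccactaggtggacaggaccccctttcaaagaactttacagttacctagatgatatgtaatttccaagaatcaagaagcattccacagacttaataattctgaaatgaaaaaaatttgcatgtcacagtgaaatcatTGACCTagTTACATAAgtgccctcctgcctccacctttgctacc
5830411N06Rik, chr7:140247051-140247300, + strand: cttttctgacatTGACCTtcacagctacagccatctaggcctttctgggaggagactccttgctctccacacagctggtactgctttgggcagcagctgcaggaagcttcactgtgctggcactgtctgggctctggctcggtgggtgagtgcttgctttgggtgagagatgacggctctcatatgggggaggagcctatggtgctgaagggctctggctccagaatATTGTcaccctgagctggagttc
Actn2, chr13:12340733-12340982, - strand: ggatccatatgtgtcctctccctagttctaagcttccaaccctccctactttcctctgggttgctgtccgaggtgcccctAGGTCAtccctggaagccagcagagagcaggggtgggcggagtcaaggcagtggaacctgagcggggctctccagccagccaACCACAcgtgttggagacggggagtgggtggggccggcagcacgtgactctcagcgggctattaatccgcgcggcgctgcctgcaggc
In Ccr6 the TTATGTAA motif lay on the opposite strand, and its base nearest to the 5′ end of the window was 36 bases before the start. A nuclear receptor core site, also on the opposite strand, began 44 bases before the start. TTATGTAA occurred in 0.938% of all 32851 windows and, among the members, in 1 Ccr6 window. TTACGTAA (0.119% of windows) and TGACTCA (5.202%) occurred in no member window. The nuclear receptor core site was present in 6 of the 10 member windows and in 16.3% of all windows. Of these 6, 3 are overlapping windows of 5830411N06Rik. By gene, it lay in a window of 4 of the 6 members (Ccr6, 5830411N06Rik, Actn2 and Il23r) and of 18.1% of all 27025 genes. The Sox motif was present for 2 members (34.4% of genes) and the Runx motif for 2 (18.9%). The windows of Sox13 and Il1r1 held none of the motifs. A match is a stretch of letters and not a measured binding site.

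**Figure D1:**
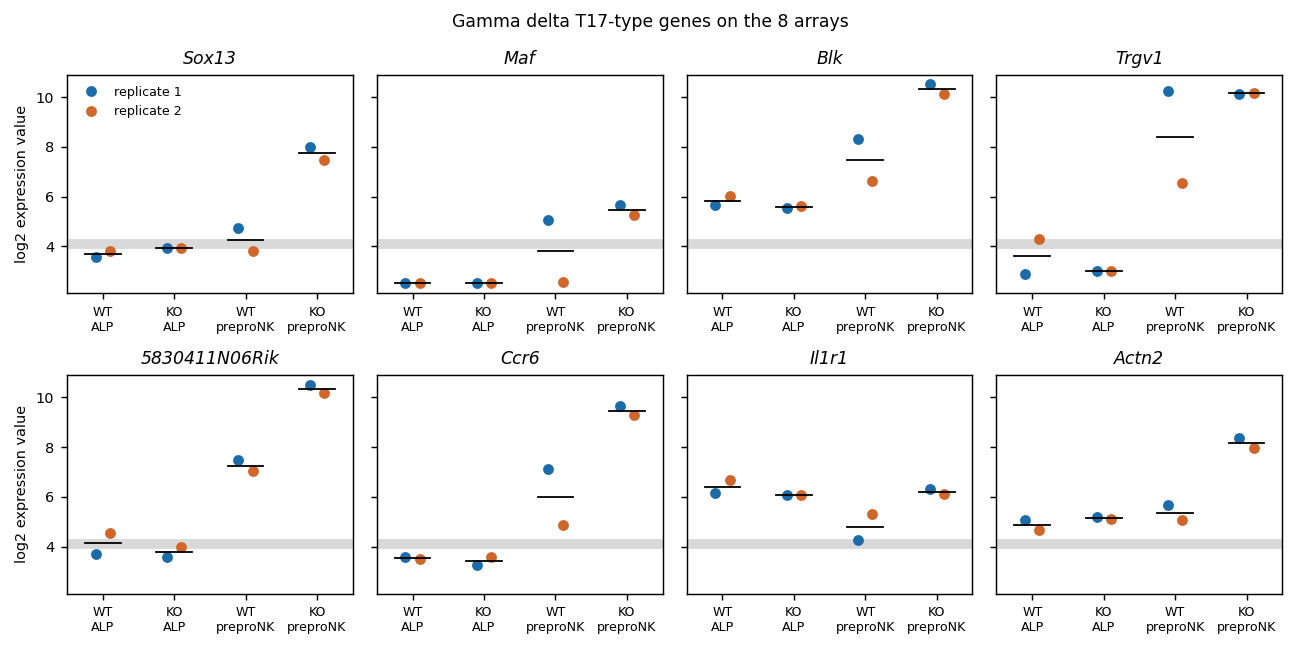
Log2 expression value (vertical axis) of the 8 measured genes on each array, with blue points for replicate 1, orange points for replicate 2, black bars for group means and a grey band for the range of the array medians (3.93 to 4.27). Both KO preproNK points lie above the other 6 points for every gene but Trgv1 and Il1r1.

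Of the transcription factors, Sox13 separated KO preproNK most sharply from the other groups. Sox13 (Entrez gene 20668, chr1:133382300-133424459 in GRCm38.p6) encodes an HMG-box factor of gamma delta T cells. Its log2 values were 7.999 and 7.49 in KO preproNK (replicates 1 and 2), 4.72 and 3.795 in WT preproNK, 3.94 and 3.93 in KO ALP and 3.56 and 3.795 in WT ALP. The KO and WT preproNK arrays did not overlap, and the difference was 3.28 in the replicate 1 pair. In WT preproNK its mean, 4.26 ± 0.65 (SD, n = 2), did not exceed that of ALP beyond the spread, and 3 of the 4 ALP arrays and WT preproNK replicate 2 were below the array median, a level taken as near background. With WT values raised to that median, Sox13 was at least 9.32-fold higher in KO preproNK in the replicate 2 pair and at least 9.52-fold higher over both pairs. These are bulk values, so a greater share of cells of some type and more RNA per cell cannot be told apart for this or any member.

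Maf (Entrez gene 17132, chr8:115703253-115706894) encodes a bZIP factor that drives the interleukin-17 program, and also works in macrophages and helper T cells. It stayed between 2.51 and 2.53 on all 4 ALP arrays, below the array medians. It was at 5.08 and 2.56 in WT preproNK and at 5.67 and 5.26 in KO preproNK. The WT preproNK replicate 1 array thus lay only 0.18 below the lower KO array. The difference was 0.60 in the replicate 1 pair. The WT preproNK replicate 2 value was below its array median, and with it raised to that median KO was at least 1.99-fold higher in the replicate 2 pair. The mean difference of 1.65 fell to 0.79 with the value so raised, and the fitted difference was 0.39 without the array that stood apart.

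Blk (Entrez gene 12143, chr14:63372837-63417187), a Src family kinase of B cells that is also used by interleukin-17 type gamma delta T cells, was measurable in every group. Its log2 values were 10.51 and 10.13 in KO preproNK, 8.32 and 6.63 in WT preproNK, 5.52 and 5.64 in KO ALP and 5.65 and 6.03 in WT ALP. The groups ranked KO preproNK, WT preproNK and then ALP with no overlap, and the 2 ALP genotypes differed by 0.26. KO preproNK was higher than WT by 2.19 in the replicate 1 pair (4.58-fold) and by 3.49 in that of replicate 2.

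Trgv1 (Entrez gene 21632, chr13:19340016-19340454), a variable segment of the T cell receptor gamma chain, did not share this difference. It was at 10.15 and 10.18 in KO preproNK, and at 10.24 on the WT preproNK replicate 1 array. Only the WT preproNK replicate 2 array was lower, at 6.54, still above the 4 ALP arrays (2.88 to 4.31). The difference between KO and WT preproNK was -0.10 in the replicate 1 pair and 3.64 in that of replicate 2. Without the array that stood apart the fitted difference was -0.08, in place of 1.77 with it. Gamma chain segments resemble each other, so signal from related segments cannot be separated here, and no other gamma or delta receptor gene searched for was listed with its own probe set.

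Among the surface receptors, 5830411N06Rik (Entrez gene 244234, chr7:140247279-140300734) had the most even difference across the replicate pairs. It encodes the scavenger receptor SCART2, found on gamma delta T cells. Its log2 values were 10.51 and 10.17 in KO preproNK, 7.47 and 7.06 in WT preproNK, 3.58 and 3.98 in KO ALP and 3.72 and 4.56 in WT ALP. KO exceeded WT preproNK by 3.04 and 3.12 in the replicate 1 and replicate 2 pairs, or 8.25-fold and 8.68-fold. The 2 arrays of each genotype lay close together (SD 0.24 in KO and 0.29 in WT), the array that stood apart included.

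Ccr6 (Entrez gene 12458, chr17:8236041-8258519) was below the array median on all 4 ALP arrays, at 3.27 to 3.59. It was at 7.12 and 4.85 in WT preproNK and at 9.66 and 9.29 in KO preproNK. The 2 WT preproNK arrays therefore differed from each other by about as much as the replicate 1 pair did, in which KO was higher by 2.53. In the replicate 2 pair the difference was 4.44.

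Il1r1 (Entrez gene 16177, chr1:40222480-40316201), the signalling receptor for interleukin-1, had another pattern. It was as high in ALP as in KO preproNK, at 6.14 and 6.67 in WT ALP, 6.06 and 6.06 in KO ALP and 6.30 and 6.13 in KO preproNK. WT preproNK alone was lower, at 4.26 and 5.33. The difference between KO and WT preproNK was 2.04 in the replicate 1 pair and 0.80 in that of replicate 2. Il1r1 was the sole member with a lower mean in WT preproNK than in WT ALP (-1.61, SE 0.45).

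Actn2 (Entrez gene 11472, chr13:12269426-12340732) encodes alpha-actinin-2, best known from the Z-disc of striated muscle. It was at 8.36 and 7.96 in KO preproNK and at 5.66 and 5.07 in WT preproNK, with ALP arrays between 4.69 and 5.202. The differences were 2.71 and 2.89 in the replicate 1 and replicate 2 pairs. Of 12 genes of a striated muscle list, only 5 passed the filter on dim values. All 5 were lower in KO than in WT preproNK in both pairs (median -0.12 and -1.35), for which no share over all genes was counted. The second median rests on the array that stood apart. Myh4, a myosin heavy chain, was at 3.43 and 3.39 in KO preproNK, below the array medians, and at 3.72 and 5.55 in WT preproNK. The source of the Actn2 signal was not tested.

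**Figure D2:**
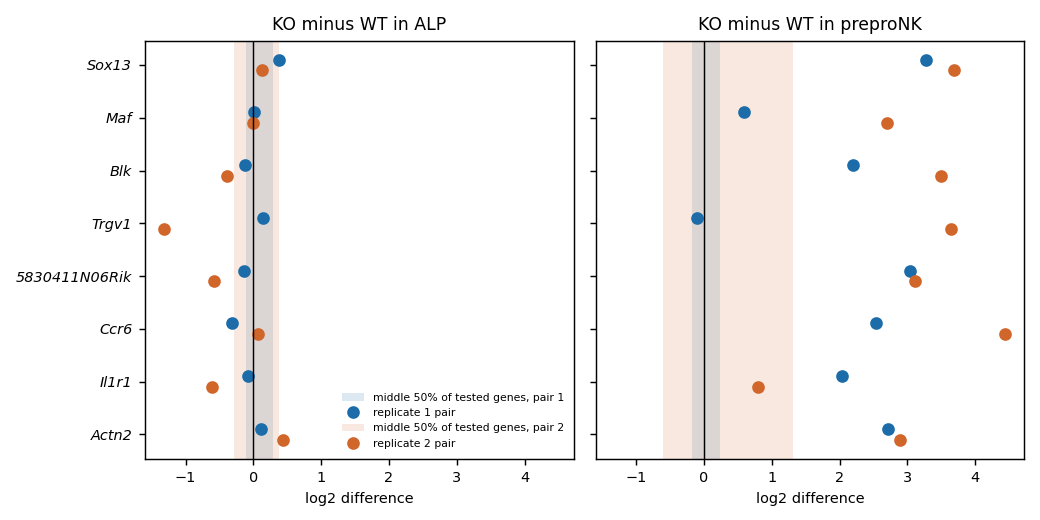
Log2 difference between KO and WT (horizontal axis) for each gene in ALP (left) and preproNK (right), blue for the replicate 1 pair and orange for the replicate 2 pair, with shading for the middle 50% of tested genes in each pair. In preproNK all points but Trgv1 in pair 1 and Il1r1 in pair 2 lie above the shading of their own pair, while in ALP the point farthest from 0 is Trgv1 in pair 2, at -1.31, where its KO array was below the array median.

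Set side by side, the members were higher together in KO preproNK in 7 of 8 cases in the replicate 1 pair (51.3% of all genes). In the replicate 2 pair 8 of 8 were higher (57.6% of all genes). The median difference was 2.36 in the replicate 1 pair, where that over all tested genes was 0.01. It was 3.31 in the replicate 2 pair, where the median over all genes was 0.29 and the middle 50% of genes spread from -0.60 to 1.31. With the WT values of Sox13 and Maf raised to the array median it was 3.17. For 7 members both KO arrays were above both WT arrays, a pattern that 22.7% of all tested genes had. For 6 members both KO preproNK arrays were above the other 6 arrays, as for 10.5% of genes. For 5 members (Sox13, Ccr6, 5830411N06Rik, Blk and Actn2) the difference was over 1 log2 in both pairs, against 2.02% of genes, and for 6 members it was so in the replicate 1 pair, against 2.88%. The members were chosen on this comparison, so these counts describe them and give no test.

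Across the 8 arrays, 7 of the members had similar profiles, with Trgv1 the least close (0.77 with Actn2 and 0.79 with Sox13). Pairs without Il1r1 had a Pearson r of 0.77 to 1.00 over 21 pairs (median 0.94), and the highest was that of Ccr6 and Blk. Il1r1 had an r of -0.42 to 0.14 with the others. The points are 8 arrays in 4 groups, and the coefficients mostly reflect the distance between groups. The members were chosen for higher values in KO preproNK, which by itself makes their profiles alike, so the coefficients give no test.

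The ALP arrays were not part of the preproNK comparison on which the genes were chosen, though earlier results of these data were known. In ALP the question was whether loss of Nfil3 already changed the members in the earlier progenitor. No member passed the test, but neither did the knocked-out gene Nfil3 itself (-2.41, SE 0.52), so this fit cannot answer the question. Only Blk, Il1r1 and Actn2 were above the array median on all 4 ALP arrays, and their differences were -0.26 (SE 0.55), -0.35 (SE 0.45) and 0.27 (SE 0.39). The adjusted p of each of the 8 was 1.00 by limma, where 0% of the 11583 genes were called, 5 had an unadjusted p under 0.05, and 0 were called with the replicate number as a block. Of these 3, Actn2 was higher on both KO arrays than on both WT arrays, and Blk and Il1r1 were lower. Of all genes, 8.68% were higher and 7.4% lower in that sense. Sox13, Ccr6, Maf, 5830411N06Rik and Trgv1 were below the array median on at least 3 of the 4 ALP arrays, so no direction is read from their differences in ALP.

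Between ALP and preproNK, 7 of 8 members had a higher mean in WT preproNK (46.3% of all genes) and 8 of 8 in KO preproNK (49.7%). These comparisons share their preproNK arrays with the comparison that chose the genes, so the counts describe them only. In KO, 6 of 8 members were called by limma, all higher (1.22% of all genes were called higher), and the exceptions were Maf and Il1r1 (0.15, SE 0.45). With values raised to the array median, KO preproNK exceeded KO ALP at least 82.7-fold for 5830411N06Rik, 73.0-fold for Trgv1, 45.3-fold for Ccr6, 13.6-fold for Sox13 and 2.82-fold for Maf. With the replicate number as a block Maf was called as well (2.59% of all genes were called higher). Leaving out 1 of the KO arrays left 0 of these calls and called 0% of all genes higher, except without KO ALP replicate 2, where 1 member was called and 0.00863% of all genes. Calls were thus lost over all genes in the same fits. In WT, 0 of 8 were called (0.0345% of all genes were called higher), 1 with the replicate number as a block (5830411N06Rik) (0.268% of all genes), 5 without the array that stood apart (Ccr6, 5830411N06Rik, Trgv1, Blk and Maf) (1.17% of all genes called higher) and 2 without WT preproNK replicate 1 (1.47%). In the WT replicate 1 pair Blk was higher in preproNK by 2.67 and Actn2 by 0.57. The other 5 members with a higher value in WT preproNK were below the array median in WT ALP replicate 1. With that value raised to the median, WT preproNK was at least 77.6-fold higher for Trgv1, 11.3-fold for 5830411N06Rik, 8.91-fold for Ccr6, 2.16-fold for Maf and 1.69-fold for Sox13.

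Other genes of the interleukin-17 program were taken from a list of 36, of which 31 were tested. Their median difference between KO and WT preproNK was 0.66 in the replicate 1 pair and 1.33 in that of replicate 2. Of the 31, 18 were higher and 4 lower in both pairs. By over 1 log2, 5 were higher in both pairs (2.02% of all genes) and 8 in the replicate 1 pair (2.88%). Of all genes, 51.3% were higher in the replicate 1 pair and 57.6% in that of replicate 2. The shares higher or lower in both pairs were not counted over all genes. None was called by limma in either direction, with or without the replicate number as a block. Over all genes, 0% were called without the block (625 had an unadjusted p under 0.05) and 0.0863% with it.

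The cytokines of the program could not be followed. Il17a itself was below the array median on all 8 arrays (2.49 to 2.98) and so was not tested, and Il17f and Il22 had no probe set of their own symbol. Rora, which encodes the ROR-alpha receptor, was at 9.33 and 8.89 in KO and at 9.58 and 4.32 in WT preproNK, so that only the array that stood apart was low. These values are from the brightest of its 5 probe sets. The others differed by -0.60 and 1.48, -0.84 and 2.63, -0.72 and -0.24, and -0.02 and -0.75 in the 2 pairs. Their means over the 8 arrays were 3.96, 3.82, 5.04 and 2.90 in that order, where the array medians were 3.93 to 4.27. Zbtb16, which encodes PLZF, a factor of innate-like lymphocytes, was at 7.29 and 6.75 in KO and at 6.35 and 5.95 in WT preproNK.

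Of the surface receptors in the list, Cd163l1, which encodes the related scavenger receptor SCART1, was at 9.31 and 8.65 in KO and at 6.94 and 6.82 in WT preproNK, a mean difference of 2.10 (SE 0.52), and its other probe set differed by 3.004. Il17re, a receptor chain for interleukin-17C, was at 8.13 and 7.77 in KO and at 5.95 and 6.35 in WT preproNK. Il18r1, an interleukin-18 receptor chain, differed by 2.12 (SE 0.58), from 1.61 and 2.63 in the 2 pairs. Ccr2, a chemokine receptor of inflammatory cells, differed by 1.24 in the replicate 1 pair and was below the array median on the WT preproNK replicate 2 array. Its other probe sets differed by 0.76, 1.42 and 0.47 in the replicate 1 pair. Il1rap, the interleukin-1 co-receptor, differed by -0.27 and 0.19 in the 2 pairs. Il12rb1, the chain that pairs with Il23r, differed by 0.34 and 2.15. Tnfsf11, which encodes the cytokine RANKL, went the other way, at 3.63 and 4.37 in KO and 5.43 and 5.01 in WT preproNK.

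**Figure D3:**
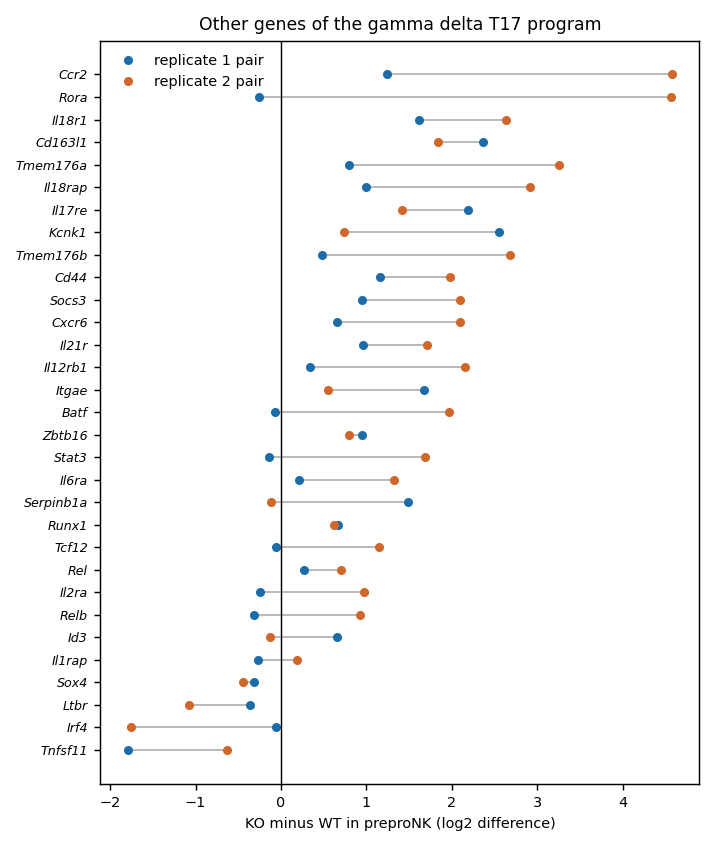
Log2 difference between KO and WT preproNK (horizontal axis) for the 31 tested genes of the wider interleukin-17 list, ordered by the mean, with blue points for the replicate 1 pair and orange points for the replicate 2 pair. The grey lines between the points are long for Rora, Ccr2 and Tmem176a, whose replicate 2 pair holds the array that stood apart.

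The higher values were not limited to interleukin-17 type genes. A list of genes of the interferon-gamma type of gamma delta T cell had 14 tested genes, 5 of which also stood in another list. Its medians were 1.55 and 2.79 in the replicate 1 and replicate 2 pairs. Of the 14, 10 were higher by over 1 log2 in both, against 2.02% of all genes. The T-bet gene Tbx21 was at 7.84 and 8.82 in KO and at 5.67 and 5.42 in WT preproNK, and Cxcr3, a chemokine receptor, was at 10.09 and 9.59 against 7.82 and 5.99. By limma 0 of the 14 were called, and 2 (Klrc1 and S1pr1) with the replicate number as a block (0.0863% of all genes). No test compared this list with the interleukin-17 genes.

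T cell markers were higher in KO preproNK too. Of 15 tested T cell genes, 12 were higher in both pairs and 8 by over 1 log2 in both (2.02% of all genes). The share of all genes higher in both pairs was not counted. Their medians were 1.51 and 1.93, and 0 were called. With the block 1 was called, Cd247 (0.0863% of all genes). The mean over the list was 7.78 and 8.17 on the KO preproNK arrays, 5.85 and 6.80 on the WT preproNK arrays and 4.50 to 4.83 on the ALP arrays. Cd3e, a chain of the T cell receptor complex, was at 9.99 and 10.45 in KO and 8.48 and 6.59 in WT preproNK, and Cd3g was at 10.34 and 9.91 in KO and 8.27 and 4.69 in WT. Cd4 was at 7.77 and 7.29 in KO and at 6.49 on both WT preproNK arrays, and Cd8a differed by 0.22 and -0.85 in the 2 pairs. Probes for the delta chain were not used here. The part of these T cell genes in the values of the members was not tested.

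Blk, Maf and other members are also used by other cells. Of 9 tested B cell genes, 2 were higher and 4 lower in both pairs, and Pax5, which defines the B lineage, was at 3.05 and 3.16 in KO preproNK, below the array medians. Cd79b was the sole B cell gene higher by over 1 log2 in both pairs (1.18 and 1.88). The B cell mean was 4.24 to 4.37 on the KO preproNK arrays and 4.18 to 5.25 on the WT preproNK arrays. None of 10 macrophage genes was higher in both pairs, and 4 were lower. The macrophage mean was 4.59 to 5.44 on the KO preproNK arrays and 4.77 to 5.06 on the WT preproNK arrays. On the ALP arrays it was 4.74 to 4.91, so 1 KO preproNK array was the highest and the other the lowest. Genes of group 2 innate lymphoid cells (6 tested) had medians of -1.48 and 1.22, and a mean of 7.04 to 7.31 in KO and 6.07 to 8.39 in WT preproNK. Of these, 1 was lower in both pairs, and 1, Ptgdr2, was higher by over 1 log2 in both. Ptgdr2 was at 7.46 and 6.56 in KO and at 4.93 and 4.70 in WT preproNK. Genes of group 3 innate lymphoid or lymphoid tissue inducer cells (5 tested) had medians of 0.22 and 0.27. Of these, 2 were higher and 1 lower in both pairs, and their mean was 5.55 to 5.59 in KO and 4.94 to 5.70 in WT preproNK. Nrp1 alone of these 5 was higher by over 1 log2 in both pairs (1.05 and 2.05). Dendritic cell genes (9 tested) had medians of -0.39 and 1.19, and a mean of 4.70 to 6.09 in KO and 5.07 to 5.31 in WT preproNK. NK cell genes (9 tested, of which 5 stood in another list) had medians of 1.47 and 1.76, and 4 of the 9 were higher by over 1 log2 in both pairs. Il2rb, a receptor chain for interleukins 2 and 15, was at 8.91 and 8.90 in KO and 6.77 and 5.76 in WT preproNK. No gene of these lists passed limma's test in either fit, and their part in the members' values was not tested. Of all genes, 2.02% were higher by over 1 log2 in both pairs. The shares of all genes higher or lower in both pairs by any amount were not counted.

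**Figure D4:**
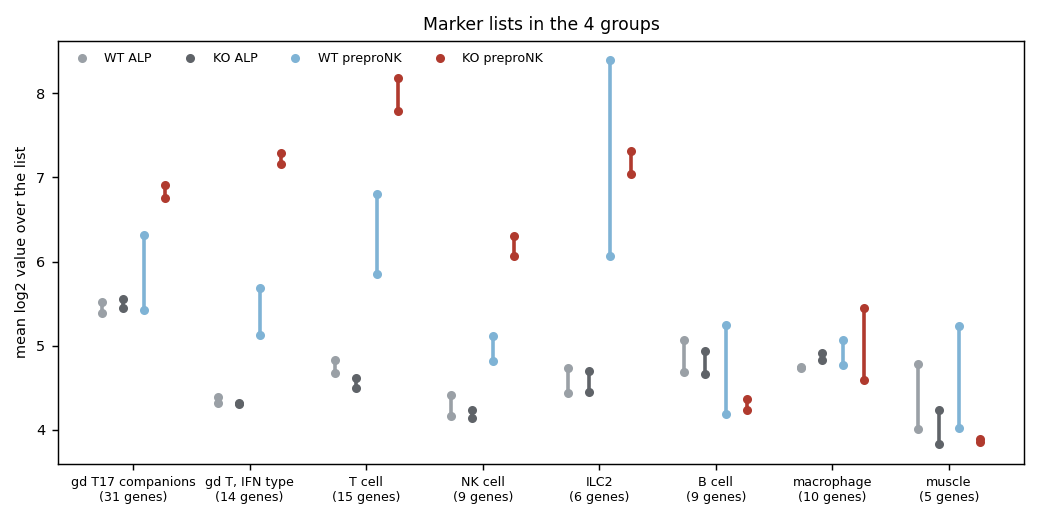
Mean log2 value over each marker list (vertical axis) on the 2 arrays of each group, joined by a line, for 8 lists with the number of tested genes under each name. The KO preproNK arrays are highest for both gamma delta T lists, T cell and NK cell genes, and not for group 2 innate lymphoid, B cell or muscle genes. For macrophage genes 1 KO preproNK array is the highest (5.44) and the other the lowest (4.59).

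The genes most like the members in pattern over the 8 arrays were found by correlation with the members' mean profile, each member scaled first. Irak3, an inhibitor of interleukin-1 and Toll-like receptor signalling, came first, with a Pearson r of 0.996. Its log2 values were 6.80 and 6.61 in KO preproNK, 4.79 and 4.27 in WT preproNK and 3.52 to 3.96 in ALP, and its other probe set differed by 1.16 between KO and WT preproNK, in place of 2.18. Next came the NK receptor gene Klrc1 (0.994), the checkpoint receptor gene Vsir (0.992), the chemokine receptor gene Ccr4 (0.990), the Notch target Dtx1 (0.989), Klrk1, which encodes NKG2D (0.988), and Nipal3 and Plekhf1 (both 0.986). Dtx1 was at 8.36 and 8.31 in KO and at 5.73 and 4.37 in WT preproNK, but its other probe set differed by 1.34 and -0.34 in the 2 pairs. The other probe set of Klrc1 differed by 0.20 and 0.29, that of Vsir by 2.00 and 2.45 and that of Nipal3 by 1.22 and 0.26. Over the 8 arrays the means of these other probe sets were 3.24 (Irak3), 2.34 (Klrc1), 3.62 (Vsir), 3.46 (Dtx1) and 6.25 (Nipal3). The array medians were 3.93 to 4.27. Of single members, Sox13 was nearest to Cd55 (0.995), Ccr6 to Blk (0.997), Blk to Klrk1 (0.997), 5830411N06Rik to Dock5 (0.996), Trgv1 to Ikzf3 (0.995), Maf to Gpr183 (0.998) and Actn2 to Sox13 (0.993). Il1r1 had the least close neighbour, Tomm40l (0.912).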

How the data were processed

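RNA of 8 sorted samples was amplified for 23 cycles and hybridised to 1-colour Affymetrix arrays, per the labels' protocols, a step that can itself add spread. The values are log2 expression per probe set as deposited. The submitters' processing notes name RMA and Partek, with no versions or settings in the sources used here. Scanner files were not used here. Precision is limited by the number of arrays.

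In all there were 45141 probe sets, of which the platform annotation gave 28898 a single gene symbol and 551 several, and 15692 were not listed with a gene. Of the first, 28689 matched RefSeq by Entrez number and 0 symbols changed. Each gene took the values of its brightest probe set and was tested if these were above the array median on at least 2 of 8 arrays. Group means were fitted jointly over the 8 arrays with limma 3.58.1 in R 4.3.3 (lmFit and eBayes, 4 residual degrees of freedom, two-sided, Benjamini-Hochberg over all tested genes, call at an adjusted p under 0.05). The fit was tested on simulated data with the same spread for every gene and no array that stood apart. That does not show what the fit can call in these data. SE is the standard error of that fit. A p-value here covers only the spread among these samples, part of which may be technical.

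The members, lists and tests were chosen with earlier results of these data known. Named were the members, Nfil3, Il17a, Cd3e and Xist, up to 4 genes per list with the largest difference of the same sign in both preproNK pairs, and the genes with the most alike profile. Id2, Flt3, Ncr1, Cd4, Cd8a, Rora, Zbtb16, Il17re, Il1rap and Il12rb1 were added after their values were seen. Per the series design each replicate number is a processing date, so it pairs the samples. The differences between replicates correlated across genes at 0.149 to 0.205 where KO preproNK was 1 of the 2 groups, and at 0.608 to 0.807 otherwise.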

Additional observations from a re-analysis of the deposited data

Results flagged for a closer look

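For 3 members every replicate pair of preproNK differed between KO and WT in the opposite direction to every pair of ALP. 5830411N06Rik was higher in KO preproNK by 3.04 and 3.12 and lower in KO ALP by a difference of -0.14 and -0.58, an interaction of 3.44. On 3 of the 4 ALP arrays it was below the array median, so its direction in ALP is not read. Blk had 2.19 and 3.49 in preproNK and -0.13 and -0.39 in ALP, an interaction of 3.10. Il1r1 had 2.04 and 0.80 in preproNK and -0.08 and -0.61 in ALP, an interaction of 1.76. None of the 3 interactions was called by limma (adjusted p = 1.00 each). The preproNK values chose these genes, so the interactions are given as values alone. Single values far from their group were not tested for, since each group has 2 arrays.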

How the results depend on the processing

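No member was called in ALP under any of the 15 alternatives, and neither was any other tested gene. These fits therefore do not set the members apart from other genes. The members' median in preproNK stayed between 2.18 and 3.45. The median in ALP ran from -0.30 to 0.032 when single arrays were left out, and turned sign without WT ALP replicate 2, but 5 of the 8 members were near background in ALP. A replicate block in the fit gave 10 calls between KO and WT preproNK, 67 between preproNK and ALP in WT and 449 in KO, in place of 0, 11 and 203. Leaving out the WT preproNK replicate 2 array as well gave 47, 431 and 1238. Without single arrays the counts ran from 0 to 2532, 0 to 824 and 0 to 530, with the highest of the first and second without WT preproNK replicate 1. In WT, no filter on dim genes gave 6 calls and repeated quantile normalization 73. Only the 4 arrays compared gave 0 in WT and 1234 in KO. The fitted difference of Trgv1 in preproNK was -0.32 with the block and without WT preproNK replicate 2, and -0.082 to 3.62 without single arrays. In ALP, leaving out single arrays gave -0.28 to 0.019 for Ccr6, -0.78 to 0.057 for 5830411N06Rik, -1.31 to 0.13 for Trgv1 and -0.015 to 0.0075 for Maf, which was 0.068 after repeated quantile normalization. The counts of members called under these alternatives, and the medians of marker lists in the replicate 1 pair alone, were chosen after seeing the data. With values below the array median raised to it, the difference of Maf in preproNK was 0.79. The causes were not tested. Where 1 array of a group was left, it was assumed to vary like the other groups. The counts with 4 arrays and with fewer genes rest on other numbers of arrays or genes.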
